A study of Mus musculus with 6 samples.

Results

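The FGF ligands and receptors described here are 10 genes of the fibroblast growth factor (FGF) signalling system, picked by symbol from a count table of 44788 symbols. They comprise the ligands Fgf2, Fgf7, Fgf9, Fgf10 and Fgf18 and the receptors Fgfr1, Fgfr2, Fgfr3, Fgfr4 and Fgfrl1. All 10 were present in the table, and 9 of them were among the 14550 genes with enough counts to be tested. The set was put together knowing that Fgf18 was higher and Fgfr4 lower in the mutant, so its differences between genotypes are given as a description. No p-values are printed for members, and whether a member passed the call threshold is stated without being read as support.

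The data were bulk RNA sequencing of tail tendons from C57BL/6 mice, with 3 wild-type (WT) and 3 Mkx-/- libraries. Mkx encodes Mohawk, a homeodomain transcription factor of tendon cells, and neither the labels nor the methods describe the mutant allele beyond naming the mice Mkx-/-. The labels give an age of 3 weeks for every animal, whereas the text of the study gives a slightly older age. The labels do not say how many animals went into each library, so errors and p-values measure the spread between libraries.

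FGF ligands are secreted proteins that bind receptor tyrosine kinases at the cell surface together with heparan sulfate, a sugar chain carried by glypicans, syndecans and perlecan. Receptor activation signals through adaptor proteins to the RAS-MAPK and PI3K-AKT cascades, and this response switches on its own inhibitors, such as the sprouty proteins. In the embryo, FGF signals from muscle are known to induce tendon progenitors, and in the growing skeleton FGF signalling controls cartilage growth and bone formation.

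Each library held between 10835070 and 14160301 counts. Mkx itself was measured at 144, 136 and 135 CPM (counts scaled to a common library size) in WT and at 56.8, 41.4 and 38.9 CPM in Mkx-/- tendons, a log2 difference of -1.60 ± 0.16 (SE), so transcript remained in the mutant at a lower level. The WT replicate 3 library differed from the other 5 in sex: it had 301 counts of the Y-linked Ddx3y and 1 count of Xist, while the others had 0 counts of Ddx3y and 1289 to 1866 of Xist. The tissue label matched the tendon markers, since Scx, Tnmd, Fmod, Thbs4, Col1a1, Col1a2, Kera and Dcn were all detected in every library. Their summed level was 381851 to 524601 CPM in WT and 244907 to 339612 CPM in Mkx-/- tendons. Most of that sum came from Col1a1 and Col1a2, with WT means of 185335 and 257911 CPM, so it says little about the other markers.

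Across the 9 tested members, Fgf18 was higher and Fgfr4 lower in Mkx-/- tendons at an adjusted p under 0.05, and the remaining 7 did not reach that threshold. Of all genes tested, 5.44% were called by the same rule. Both members also passed the stricter rule of a log2 difference above 1 or below -1, which 1.89% of all genes passed upwards and 1.33% downwards. The 3 WT and 3 Mkx-/- libraries did not overlap for 7 of the 9 members, 4 of them higher and 3 lower in the mutant, against 28.2% of all genes. The median log2 difference was 0.28 over the members and -0.0037 over all genes. Because the same contrast was used to assemble the set, nothing is read from these shares.

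**Figure D1:**
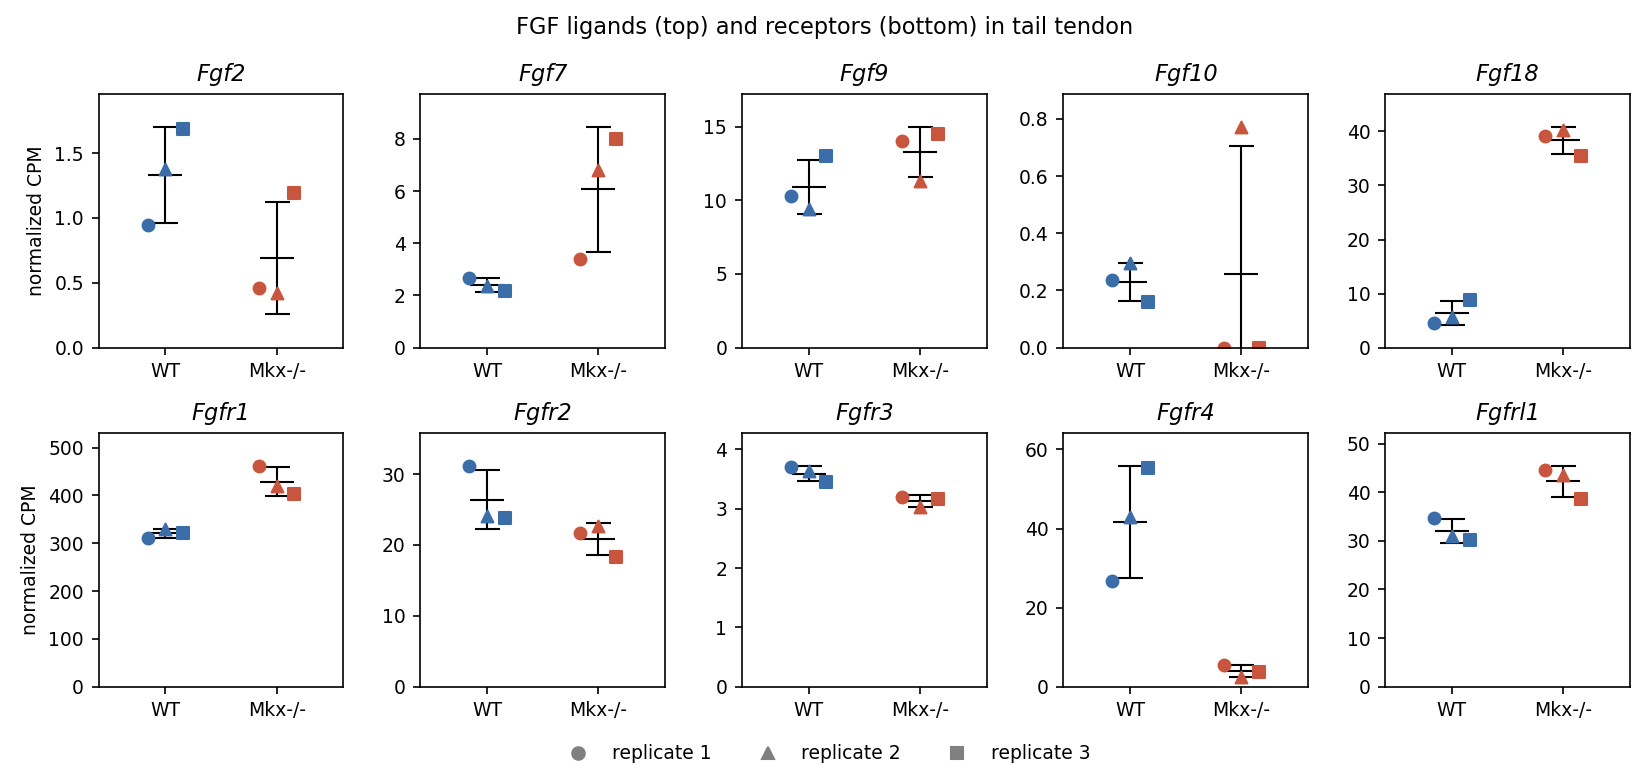
Normalized CPM of each FGF ligand (top row) and receptor (bottom row) in WT (blue) and Mkx-/- (red) tail tendon libraries, with the mean and SD of 3 libraries per genotype. Each panel has its own linear axis from 0, where the lower SD bar of Fgf10 is cut off. The Fgf18 points of the mutant lie between 35.5 and 40.3 CPM, above all WT points, and the Fgfr4 points of the mutant lie between 2.53 and 5.50 CPM, below all WT points.

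Among the ligands, Fgf18 differed the most. It encodes a growth factor known for its role in cartilage and bone development, and lies on the minus strand at chr11:33017430-33047400 of mm9. Fgf18 was measured at 4.49, 5.69 and 8.81 CPM in the WT libraries and at 39.2, 40.3 and 35.5 CPM in the Mkx-/- libraries, from 57 to 110 and from 428 to 574 counts. All 3 mutant libraries were well above the highest WT library, WT replicate 3, and they were close to each other. The means of WT and mutant were 6.33 ± 2.23 and 38.3 ± 2.52 CPM (SD of 3 libraries each), a 6.06-fold higher level in the mutant, and the log2 difference was 2.59 ± 0.23 (SE). Without the male library, WT replicate 3, that difference was 2.90. Like every bulk level here, a higher value cannot be told apart into more cells that express the gene and more RNA per cell.

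Fgf7 encodes a paracrine factor made by mesenchymal cells that acts mainly on epithelia, and lies at chr2:125860394-125916921. Its level was 2.68, 2.36 and 2.16 CPM in WT and 3.39, 6.82 and 8.01 CPM in Mkx-/- tendons. The genotypes did not overlap, but Mkx-/- replicate 1 was only slightly above WT replicate 1, and the mutant libraries were spread more widely than those of WT. The log2 difference was 1.34 ± 0.33 (SE), below the call threshold.

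Fgf9, at chr14:58689384-58731174, encodes a secreted factor with roles in skeletal and lung growth. It was measured at 10.3, 9.42 and 13.0 CPM in WT and at 14.01, 11.3 and 14.5 CPM in the mutant. The ranges overlapped, since WT replicate 3 was above Mkx-/- replicate 2, and the log2 difference was 0.28 ± 0.18 (SE).

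Fgf2 and Fgf10 were scarce in this tissue. Fgf2, basic FGF, lies at chr3:37211441-37304299 and had 12, 14 and 21 counts in WT against 5, 6 and 15 counts in Mkx-/- tendons, or 0.945, 1.37 and 1.68 against 0.458, 0.422 and 1.19 CPM. Mkx-/- replicate 3 fell inside the WT range, so the genotypes overlapped, and the log2 difference of -0.94 ± 0.48 (SE) rested on few reads and was -1.58 without Mkx-/- replicate 3. Its exons share 242 bases with Nudt6 and 55 bases with Cetn4 on the opposite strand. Reads in those stretches cannot be assigned unless counting used the strand, which is not given in the sources used here. A further 32 bases are shared with Bbs12 on the same strand, where use of the strand would not help. Fgf10, at chr13:119458598-119580922, encodes a mesenchymal factor needed for limb and lung buds, and it was not tested. It had 3, 3 and 2 counts in WT and 0, 11 and 0 counts in the mutant, so that 1 library held all of the mutant's reads. The 0 counts of Mkx-/- replicates 1 and 3 allow levels of up to 0.275 and 0.238 CPM (3 counts each, counting error only).

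Among the receptors, Fgfr4 differed the most, and in the opposite direction to Fgf18. It encodes a receptor tyrosine kinase best known from liver, where it takes part in the control of bile acid synthesis, and from developing muscle. The gene lies on the plus strand at chr13:55254001-55270120. Fgfr4 was measured at 26.8, 43.0 and 55.2 CPM in WT and at 5.50, 2.53 and 3.81 CPM in Mkx-/- tendons, from 340 to 689 and from 36 to 60 counts. The libraries of each genotype varied, with a coefficient of variation of 34.2% in WT and 37.7% in the mutant, and the lowest WT library was far above the highest mutant library. The means were 41.7 ± 14.3 and 3.94 ± 1.49 CPM (SD of 3 libraries each), a 10.6-fold lower level in the mutant, and the log2 difference was -3.42 ± 0.34 (SE). Without WT replicate 3, which had the highest Fgfr4 level, it was -3.18.

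The other receptors differed by less between the genotypes. Fgfr1, at chr8:26624126-26686186, encodes the receptor that is widespread in connective tissue. It was measured at 312, 329.9 and 321 CPM in WT and at 462, 419 and 403 CPM in the mutant. Every mutant library was above every WT library, with a log2 difference of 0.42 ± 0.12 (SE) that did not reach the call threshold. Fgfrl1, at chr5:109123248-109135969, encodes a receptor-like protein without a kinase domain. Its level was 34.7, 31.0 and 30.2 CPM in WT and 44.5, 43.6 and 38.5 CPM in the mutant, again with no overlap, and a log2 difference of 0.40 ± 0.12 (SE).

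Fgfr2 and Fgfr3 pointed the other way by small amounts. Fgfr2, the receptor with an epithelial and a mesenchymal splice form, was measured at 31.2, 24.1 and 23.9 CPM in WT and at 21.7, 22.6 and 18.3 CPM in Mkx-/- tendons. The highest mutant library lay just under the lowest WT library, and the log2 difference was -0.34 ± 0.15 (SE). The mm9 annotation record of Fgfr2 runs across many neighbouring genes, so no coordinates are given for it and its exon length is uncertain. Fgfr3, a receptor that restrains growth plate cartilage, lies at chr5:34064373-34079716 and was measured at 3.70, 3.63 and 3.44 CPM in WT and at 3.21, 3.02 and 3.17 CPM in the mutant. Its log2 difference of -0.20 ± 0.20 (SE) was no larger than its error and changed sign, to 0.053, when libraries were scaled by their size alone.

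The comparison turns on Fgf18 and Fgfr4, and the bases before their start sites are shown so that both promoters can be set side by side. Promoters of 9 of the 10 members were matched in RefSeq (GRCm38.p6). The sequences read 5′ to 3′ along the gene over the 250 bases before the start, chr11:33147401-33147650 on the minus strand for Fgf18 and chr13:55152568-55152817 on the plus strand for Fgfr4, and capitals mark GC boxes (GGGCGG, or CCGCCC where the box is on the other strand).
Fgf18: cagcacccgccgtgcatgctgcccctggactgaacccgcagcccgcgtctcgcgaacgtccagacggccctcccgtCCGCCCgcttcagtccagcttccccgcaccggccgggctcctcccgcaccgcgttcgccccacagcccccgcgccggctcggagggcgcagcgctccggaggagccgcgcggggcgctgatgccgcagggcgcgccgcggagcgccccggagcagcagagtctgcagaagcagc
Fgfr4: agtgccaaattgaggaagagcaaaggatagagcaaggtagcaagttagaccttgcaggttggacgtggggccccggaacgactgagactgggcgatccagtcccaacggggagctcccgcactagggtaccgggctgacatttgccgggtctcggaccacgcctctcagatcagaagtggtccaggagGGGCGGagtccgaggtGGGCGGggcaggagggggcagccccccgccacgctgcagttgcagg
The Fgf18 window was 77.2% G and C with 37 CG pairs, more than in 97.8% of the 32851 promoter windows of the same length, whose median was 6. The Fgfr4 window was 64.0% G and C with 15 CG pairs, more than in 72.7% of the windows. Fgf18 had 1 GC box and Fgfr4 had 2, while 32.7% of all windows held at least 1. E-boxes (CANNTG) were found 2 times for Fgfr4 and 0 times for Fgf18, with 66.2% of all windows holding one, and TATAAA was found in neither, with 12.4% of all windows holding it. Both strands were searched, and no GC box shared bases with another motif. These letters describe the sequence only, since no measurement in the files bears on the promoters.

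Counts depend on transcript length, so levels were compared between genes as normalized CPM per kilobase of merged exons. In WT tendons the order of mean levels was Fgfr1 (39.8), Fgfrl1 (12.0), Fgfr4 (11.7), Fgf18 (5.33), Fgfr2 (3.39), Fgf9 (2.56), Fgf2 (0.740), Fgf7 (0.739), Fgfr3 (0.522) and Fgf10 (0.0501 CPM per kb). Receptors held the first 3 places. The ranges of neighbours in that order overlapped between Fgfrl1 and Fgfr4, between Fgf18 and Fgfr2, and between Fgf2 and Fgf7. The order depends on the lengths used, and that of Fgfr2 is uncertain. Division by the longest coding transcript, 4.22 kb for Fgfr2 instead of 7.80 kb, put Fgfr2 above Fgf18. It also put Fgfr4 just above Fgfrl1.

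In Mkx-/- tendons the order was Fgfr1 (53.1), Fgf18 (32.3), Fgfrl1 (15.9), Fgf9 (3.11), Fgfr2 (2.68), Fgf7 (1.87), Fgfr4 (1.11), Fgfr3 (0.455), Fgf2 (0.383) and Fgf10 (0.0560 CPM per kb). Fgf18 was the second there, with a range apart from those of both neighbours, and Fgfr4 was the seventh. Ranges overlapped between Fgf9 and Fgfr2, Fgfr2 and Fgf7, Fgf7 and Fgfr4, and Fgfr3 and Fgf2. Division by the longest coding transcript put Fgfr2 above Fgf9.

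Summed per kilobase, the 5 ligands amounted to 7.60, 8.56 and 12.1 CPM per kb in WT and to 37.6, 39.1 and 36.4 CPM per kb in the mutant. Fgf18 made up 55.7 ± 5.80% of this sum in WT and 85.6 ± 3.06% in Mkx-/- tendons (SD of 3 libraries each). Without division by length its share was 29.3% in WT, where Fgf9 was then the largest ligand at 51.6%, and 65.4% in the mutant. Without Fgf18 the sum of the other 4 ligands was 4.09 ± 0.512 in WT and 5.42 ± 0.999 CPM per kb in the mutant (SD, n = 3 each). Their ranges overlapped, since the highest WT library, at 4.68 CPM per kb, was above the lowest mutant library, at 4.58 CPM per kb.

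The 5 receptors summed to 67.5 ± 3.32 CPM per kb in WT and to 73.3 ± 5.28 CPM per kb in the mutant (SD, n = 3 each), with overlapping ranges. Fgfr4 supplied 17.2 ± 5.16% of the receptor sum in WT and 1.502 ± 0.492% in Mkx-/- tendons, while Fgfr1 supplied 59.0 ± 2.09% and 72.5 ± 0.703%. Without division by length the share of Fgfr4 was 9.75% and 0.784%. Without Fgfr4 the sum was 55.8 ± 0.864 in WT and 72.2 ± 5.01 CPM per kb in the mutant. The receptor sums of the genotypes overlapped, and the shares of Fgfr4 and Fgfr1 did not.

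**Figure D2:**
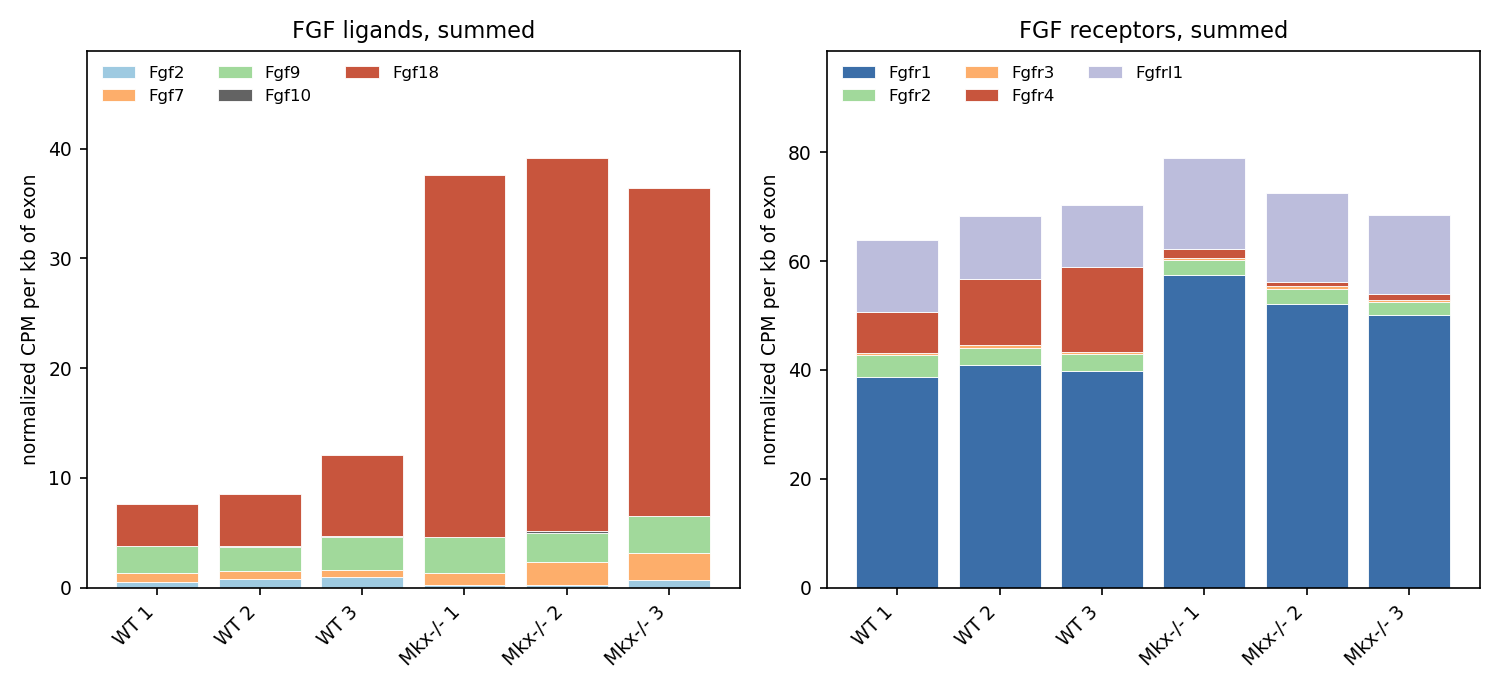
Summed level of the 5 ligands (left) and the 5 receptors (right) in each library, as normalized CPM per kb of merged exon, stacked by gene. Fgf18 (red, left) makes up 49.8% to 61.4% of the ligand sum in WT and 82.1% to 87.8% in Mkx-/- libraries, and Fgfr4 (red, right) makes up 11.8% to 22.1% of the receptor sum in WT and 0.982% to 1.96% in the mutant.

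Fgf18 was not the most abundant FGF ligand of WT tendon. Fgf1, acidic FGF, is no member but had the highest level among the 17 ligands outside the set, at 13.6, 17.2 and 19.5 CPM per kb in WT and at 8.14, 16.4 and 13.3 CPM per kb in the mutant. Fgf18 stood at 3.78, 4.80 and 7.42 CPM per kb in the WT libraries, below Fgf1 in each of them. In the mutant it stood at 33.0, 34.0 and 29.9 CPM per kb, above Fgf1 in each library. That order in the mutant depends on division by length. Without it, Fgf18 was at 39.2, 40.3 and 35.5 CPM there and Fgf1 at 37.8, 76.4 and 61.8 CPM. Fgf1 was then above Fgf18 in Mkx-/- replicates 2 and 3.

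Genes whose levels followed those of Fgf18 and Fgfr4 across the 6 libraries were named by the Pearson correlation of log2 CPM among 10294 other genes, a measure that is high for any gene whose libraries separate the genotypes. The closest to Fgf18 were Shisa2 (r = 0.994), Adam23 (r = 0.992) and Arhgef3 (r = 0.992). Shisa2, which encodes a membrane protein, was measured at 2.05, 3.53 and 4.41 CPM in WT and at 24.3, 32.7 and 26.3 CPM in the mutant. The closest to Fgfr4 were Alcam (r = 0.998), Rps6ka1 (r = 0.998) and Cps1 (r = 0.997). Alcam, a cell adhesion molecule, was measured at 15.0, 21.9 and 25.2 CPM in WT and at 4.40, 1.90 and 2.85 CPM in Mkx-/- tendons, and so had the same order of libraries as Fgfr4.

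The genes that act with the ligands and receptors were described by 4 lists with 97 genes in all, of which 74 were tested. Of these, 6 were higher and 3 lower in the mutant at an adjusted p under 0.05 (edgeR, Benjamini-Hochberg over all genes), against 3.18% and 2.26% of all genes. Single libraries weighed on the genes called lower: 0 were called without WT replicate 3 or without Mkx-/- replicate 3, 1 without Mkx-/- replicate 1 or 2, and 5 without WT replicate 1. The 3 genes called lower in the main fit, Flrt1, Glce and Fos, were all lost without any 1 of the mutant libraries. The single call was another gene, Dusp7 without Mkx-/- replicate 1 and Pik3r1 without Mkx-/- replicate 2. The median log2 difference was -0.0041 over the lists and -0.0037 over all genes. For these lists and the marker lists, counts at an unadjusted p under 0.05 are also given. The share of all genes at that unadjusted threshold is not given here, so nothing is read from those counts. DESeq2 called 787 higher and 588 lower over all genes, and its counts for the lists are to be read beside these.

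**Figure D3:**
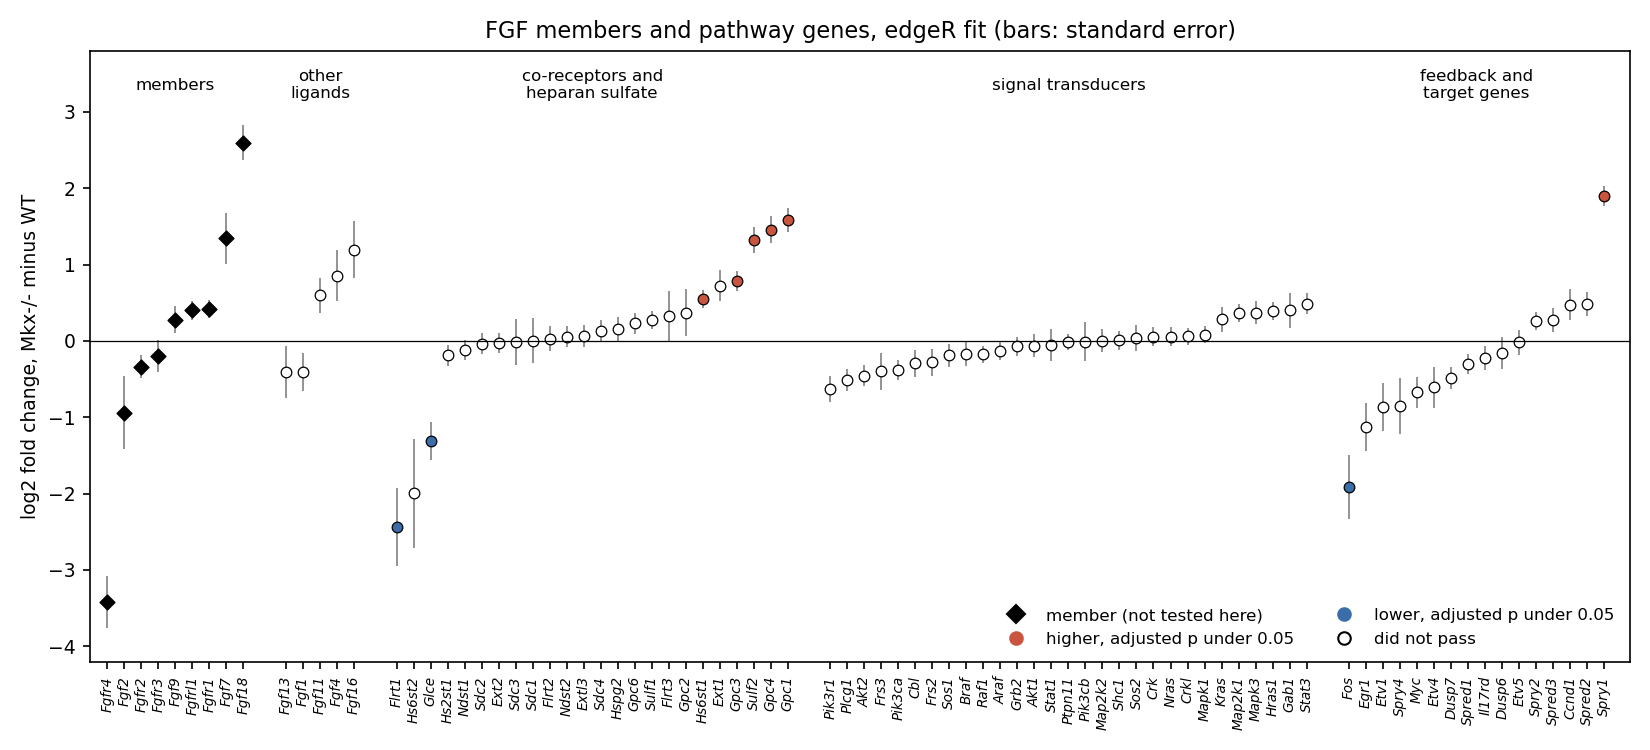
Log2 difference, Mkx-/- minus WT, of the 9 tested members (black diamonds) and of 74 tested genes in 4 FGF pathway lists, from the edgeR fit, with bars for the standard error. Red marks list genes called higher and blue marks list genes called lower at an adjusted p under 0.05, and the members are not coloured by their calls. Spry1, Gpc1, Gpc4 and Sulf2 lie highest and Flrt1 lowest among the list genes, while none of the 29 signal transducers, of which Pik3r1 lies lowest at -0.64, is coloured.

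Of the 17 other FGF ligands, 12 were too scarce to be tested and none of the 5 tested passed in edgeR or DESeq2, although the unadjusted p was under 0.05 for 3 that were higher and for 0 that were lower (median log2 difference 0.60). Fgf1 was measured at 63.0, 80.1 and 90.8 CPM in WT and at 37.8, 76.4 and 61.8 CPM in the mutant, with a log2 difference of -0.41 ± 0.25 (SE) and an adjusted p of 0.382 (edgeR). Fgf11, a family member that stays inside the cell, had a log2 difference of 0.60 ± 0.23 (SE) and an adjusted p of 0.167 (edgeR).

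Among the co-receptors and enzymes of heparan sulfate, 24 of 31 genes were tested, and 5 rose and 2 fell, with a median log2 difference of 0.10 over the list. Among those that rose were 3 glypicans, proteoglycans anchored in the membrane that carry heparan sulfate. Gpc1 went from 27.4, 35.8 and 29.5 CPM in WT to 83.0, 89.3 and 105 CPM in the mutant, a log2 difference of 1.58 ± 0.15 (SE, adjusted p = 0.00149, edgeR). Gpc4 went from 19.8, 27.9 and 29.2 CPM to 80.3, 62.1 and 68.2 CPM, a log2 difference of 1.46 ± 0.18 (SE, adjusted p = 0.00393, edgeR). Gpc3 was the most abundant of the 3 and went from 101.4, 119.8 and 119 CPM to 193, 177 and 214 CPM, a log2 difference of 0.78 ± 0.13 (SE, adjusted p = 0.0164, edgeR). Each of them was higher in all 3 mutant libraries than in any WT library.

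Sulf2, which encodes an enzyme that removes sulfate groups from heparan sulfate outside the cell, rose from 127, 169 and 145 CPM to 367, 307 and 427 CPM, a log2 difference of 1.32 ± 0.17 (SE, adjusted p = 0.00487, edgeR). Glce, which encodes the epimerase that modifies the uronic acids of heparan sulfate, fell from 112, 65.7 and 78.4 CPM to 38.2, 40.9 and 24.4 CPM, a log2 difference of -1.31 ± 0.25 (SE, adjusted p = 0.0242, edgeR). Hs6st1, a sulfotransferase, and Flrt1, a membrane protein that binds FGF receptors, are named after their values were seen, to complete the 7 genes. Hs6st1 rose by a log2 difference of 0.55 ± 0.11 (SE, adjusted p = 0.0317) and Flrt1 fell by 2.44 ± 0.51 (SE, adjusted p = 0.0345, edgeR), the latter from 1.57 to 4.41 CPM in WT to 0.275 to 0.703 CPM.

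Gpc1, Gpc4 and Sulf2 passed in 14 of 14 alternative fits. The other 4 calls were lost in some of them. Gpc3 was lost without WT replicate 2 (adjusted p = 0.0608), WT replicate 3 (adjusted p = 0.0632) or Mkx-/- replicate 3 (adjusted p = 0.0623, edgeR), and with the replicate block (adjusted p = 0.0505, edgeR). Glce was lost without WT replicate 3 (adjusted p = 0.0705) or any of Mkx-/- replicates 1, 2 and 3 (adjusted p = 0.0514, 0.0503 and 0.0634, edgeR). Of the 6 fits without 1 library, Hs6st1 passed in the one without WT replicate 1 and had adjusted p-values of 0.0679 to 0.120 in the others, and Flrt1 had adjusted p-values of 0.0533 to 0.112 when any library was left out (edgeR). Both were also lost with the replicate block (adjusted p = 0.0904 for Hs6st1 and 0.0871 for Flrt1, edgeR).

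The 2 most abundant genes of this list in WT did not pass. Hspg2, which encodes perlecan, had a log2 difference of 0.16 ± 0.15 (SE, adjusted p = 0.595, edgeR). Sdc3, a syndecan, had a log2 difference of -0.01 ± 0.30 (SE, adjusted p = 0.990, edgeR), and its sign depended on the scaling and on single libraries.

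All 29 signal transducers were tested, from the adaptors Frs2 and Grb2 to RAS, RAF, MEK, ERK, PI3K and AKT, and none passed in edgeR, although 4 higher and 4 lower genes had an unadjusted p under 0.05 and DESeq2 called 1 higher and 3 lower (median log2 difference -0.02). Akt1, the most abundant, had a log2 difference of -0.06 ± 0.15 (SE, adjusted p = 0.847, edgeR) that turned positive when libraries were scaled by their size alone. Pik3r1, a regulatory subunit of PI3K, was measured at 177, 142 and 161 CPM in WT and at 91.1, 128 and 89.4 CPM in the mutant. The genotypes did not overlap, and the log2 difference was -0.64 ± 0.17 (SE, adjusted p = 0.0722, edgeR). It passed without Mkx-/- replicate 2 (adjusted p = 0.0461, edgeR), with the filter of 1 count in any library (adjusted p = 0.0282, edgeR) and in DESeq2 (adjusted p = 0.0135).

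Of the feedback inhibitors and target genes, 16 of 20 were tested, and 1 rose and 1 fell, with a median log2 difference of -0.26 over the list against -0.0037 over all genes. The unadjusted p was under 0.05 for 3 that were higher and 6 that were lower, and DESeq2 called 1 higher and 2 lower. Spry1, a sprouty protein that restrains receptor tyrosine kinase signalling, rose from 37.3, 30.7 and 30.7 CPM in WT to 129, 121 and 119 CPM in Mkx-/- tendons. The libraries of each genotype were tightly grouped, and the log2 difference of 1.90 ± 0.13 (SE, adjusted p = 0.000431, edgeR) passed in 14 of 14 alternative fits.

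Fos, an early response gene, fell from 135, 36.1 and 90.4 CPM to 17.3, 24.0 and 28.2 CPM, a log2 difference of -1.91 ± 0.42 (SE, adjusted p = 0.0404, edgeR). The WT libraries varied widely, and the call was lost without WT replicate 3 (adjusted p = 0.109) or any of Mkx-/- replicates 1, 2 and 3 (adjusted p = 0.0992, 0.111 and 0.0917, edgeR), in the robust fit (adjusted p = 0.0774) and with the replicate block (adjusted p = 0.0926). Dusp7, a phosphatase that inactivates ERK, had a log2 difference of -0.49 ± 0.15 (SE, adjusted p = 0.0993, edgeR) and passed without Mkx-/- replicate 1 (adjusted p = 0.0420, edgeR). The other sprouty genes tested, named after their values were seen, were not called. Spry2 had a log2 difference of 0.26 ± 0.12 (SE, adjusted p = 0.238) and Spry4 one of -0.85 ± 0.37 (SE, adjusted p = 0.212, edgeR).

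Whole tendon holds several cell types, and the summed levels of several marker lists did not overlap between the genotypes, as for Fgf18 and Fgfr4. The 12 skeletal muscle markers summed to 36.4 to 394 CPM in WT and to 518 to 2879 CPM in the mutant, with 3 of 12 called higher, and Acta1 was the largest. The unadjusted p was under 0.05 for all 12, each of them higher, and DESeq2 called 7. Among the mutant libraries the sum was highest in replicate 1 and lowest in replicate 3. Markers of muscle progenitors were near the detection limit, with sums of 0.551 to 1.20 CPM in WT and 0.872 to 1.83 CPM in the mutant, and Pax7, Myf5 and Myog were at 0 counts in every WT library.

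The 8 cartilage markers summed to 1300.2 to 1794 CPM in WT and to 1875 to 2554 CPM in Mkx-/- tendons. Comp was the largest over all libraries, Acan and Matn3 were called higher among 6 tested (4 by DESeq2), and Matn1 was at 0 in every library. Not all members rose. Col2a1, named after its values were seen, had a WT mean of 748 CPM, above the 727 CPM of Comp. Its log2 difference was -0.08 ± 0.30 (SE, adjusted p = 0.905, edgeR), and that of Hapln1 was -0.22 ± 0.32 (SE). The 10 endothelial markers, with Tek the largest, summed to 65.8 to 79.1 and 78.2 to 158 CPM, with 0 called by edgeR, 5 higher at an unadjusted p under 0.05 and 4 called by DESeq2.

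The 9 macrophage and leukocyte markers, led by Lyz2, summed to 435 to 486 CPM in WT and to 285 to 343 CPM in the mutant, and Csf1r and Emr1 were called lower. The unadjusted p was under 0.05 for 8 of the 9, each of them lower, and DESeq2 called 3. Of the 8 tendon markers, Thbs4 was called higher by edgeR, DESeq2 called 1 higher and 3 lower, and Col1a2, the largest, had a log2 difference of -1.02 ± 0.30 (SE, adjusted p = 0.0933, edgeR). Osteoblast markers (2.84 to 5.21 against 6.25 to 6.74 CPM, Alpl the largest), adipocyte markers (2.24 to 3.62 against 2.20 to 4.005 CPM, Fabp4 the largest) and keratinocyte markers (13.4 to 27.5 against 24.4 to 28.1 CPM, Trp63 the largest) had low sums in both genotypes, and edgeR called 0 of the 8 genes tested from these lists. Of those 8, 5 had an unadjusted p under 0.05 and were higher and 1 was lower, and DESeq2 called 2 higher and 1 lower. Some genes of these lists, named after their values were seen, did not overlap between genotypes, in either direction. Runx2 was at 0.481 to 0.788 CPM in WT and 1.19 to 2.53 CPM in the mutant. Alpl was at 0.551 to 1.84 and 2.53 to 3.73 CPM, and Krt5 at 0 to 2.75 and 5.48 to 6.96 CPM. Lower in the mutant were Trp63, at 10.6 to 19.0 and 4.44 to 9.98 CPM, and the scarce Dmp1 and Lep. Without overlap, 2 osteoblast, 0 adipocyte and 3 keratinocyte markers were higher, and 1 of each list was lower. Of all genes tested, 28.2% did not overlap. The part of these cell types in the differences of Fgf18, Fgfr4 and the pathway genes was not tested.

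**Figure D4:**
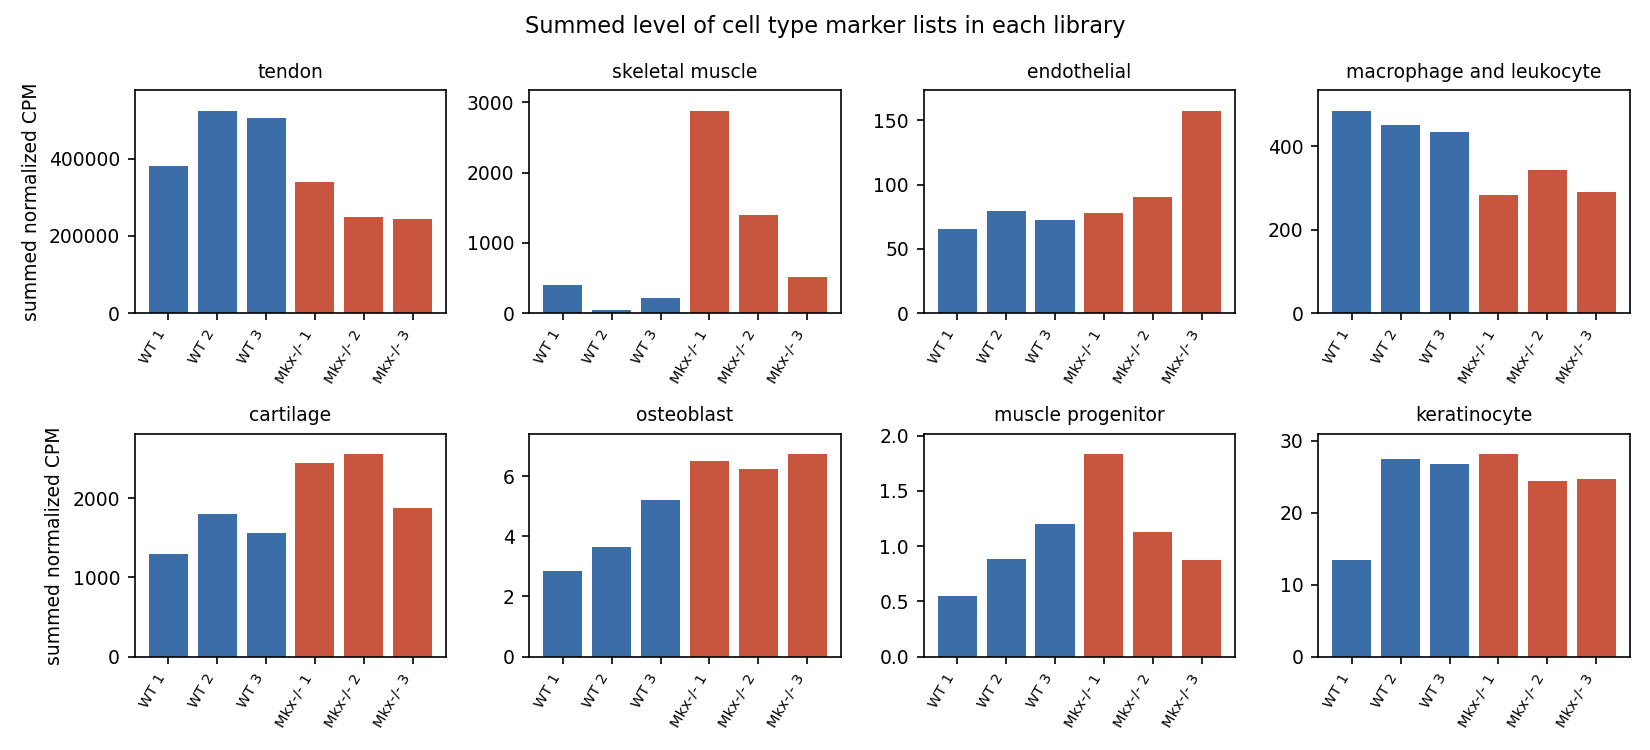
Summed normalized CPM of the markers of 8 cell types in each WT (blue) and Mkx-/- (red) library, each panel with its own linear axis from 0. The muscle sum is highest in Mkx-/- replicate 1 at 2879 CPM, the macrophage sum is lower in all 3 mutant libraries at 285 to 343 CPM, and the muscle progenitor sum reaches at most 1.83 CPM.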

How the data were processed

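Total RNA of tail tendons was sequenced on an Ion Proton instrument after library preparation with the Ion Total RNA-Seq Kit v2. The authors removed adaptor and low-quality reads, aligned the rest to mm9 with MapSplice and deposited unnormalized counts, given as whole reads for each gene symbol. The counting program, its annotation and its use of strand are not given in the sources used here. Each of the 6 columns carries the title of its sample, and groups follow the labelled genotype.

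These deposited counts were analysed with edgeR 4.0.16 (R 4.3.3), which gave normalized CPM and log2 differences (Mkx-/- minus WT, prior count 0.125) using TMM scaling, filterByExpr and a quasi-likelihood fit on genotype over all 14550 genes kept, with Benjamini-Hochberg adjustment and a threshold of 0.05. Of 44788 symbols, 19011 had 0 counts in every library. Levels per length divide normalized CPM by the merged exons of the GENCODE annotation of mm9. Libraries held 10835070 to 14160301 counts, and at that depth the scarcest members rest on few reads.

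The members and gene lists were chosen with earlier results of these data known. Besides the members and Mkx, the text names, for each pathway list, at most the 5 called genes with the smallest p and the 2 most abundant in WT, for each marker list the most abundant gene, and for Fgf18 and Fgfr4 the 3 genes with the highest correlation among those with a mean of at least 5 CPM (log2 CPM, prior count 2). Any other gene was named with its values known. Alternatives included DESeq2 1.42.0, other scalings, a looser filter (1 count in at least 1 library), a stricter filter (10 counts in all 6), a robust fit, the replicate number as a block, each library left out in turn, and levels without division by length. Division by the longest coding transcript was added after seeing the data. The fits were tested on simulated data. A marker list is withheld for evaluation and not reported here.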

Additional observations from a re-analysis of the deposited data

How the results depend on the processing

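Fgf18 and Fgfr4 kept their direction in 14 of 14 alternative fits, with log2 differences of 2.39 to 2.90 and of -3.74 to -3.15. These fits reuse the libraries by which both genes were chosen, so they show only how the values depend on processing. Other members passed the call threshold in some of the alternative fits, Fgf7 in 5, Fgfr1 in 2 and Fgfrl1 in 1. Scaling by library size alone moved the median of all genes by 0.25, and the differences of the other members moved with it: Fgfr1 reached 0.67, Fgfrl1 0.64 and Fgf9 0.53, and Fgfr3 changed sign to 0.053. Relative to this shift they were close to the values in the report. With that scaling the calls over all genes were 1358 higher and 197 lower, against 463 and 329, and those in the pathway lists were 13 higher. A filter of 1 count in any library gave 970 and 594 calls, and DESeq2 gave 787 and 588. In the pathway lists, the genes called lower numbered 6 with that filter and 7 with DESeq2, against 3. Leaving out each library in turn gave 117 to 539 genes called higher and 127 to 439 called lower, and in the pathway lists 4 to 8 higher and 0 to 5 lower. The lowest counts over all genes, 117 higher and 127 lower, came without WT replicate 3, the male library. Without WT replicate 2, which is not male, they were nearly as low, at 137 higher and 131 lower.

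The replicate numbers gave no clear sign of pairing. The deviations of equally numbered libraries correlated at 0.026, -0.21 and 0.30, and those of unequally numbered libraries at -0.392 to 0.398. So few libraries cannot settle whether the samples were paired. With the replicate block, 264 genes were called higher and 170 lower, and 1 pathway gene was called lower. The differences of Fgf18 and Fgfr4 were 2.63 and -3.39 with the block.

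Akt1 and Sdc3, both close to 0, changed sign. Akt1 was at 0.20 and Sdc3 at 0.26 with library size alone, and Sdc3 was at 0.042 with the replicate block, 0.051 without WT replicate 2, 0.22 without WT replicate 3 and 0.16 without Mkx-/- replicate 2, within -0.29 to 0.22 as each library was left out. Without division by length, Fgf18 made up 29.3% of the ligand counts in WT and 65.4% in the mutant, and Fgfr4 9.75% and 0.784% of the receptor counts, because long genes then weigh more. Divided by the longest coding transcript, the shares in WT and mutant were 50.9% and 83.4% for Fgf18 and 13.0% and 1.08% for Fgfr4. The cause of the other changes was not tested. Depth limits Fgf2 and Fgf10, with at most 21 counts in a library.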

Other observations

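The genes next to Fgf18 and Fgfr4 on the chromosome gave the following values. Npm1, which encodes nucleophosmin and lies 4.89 kb from Fgf18, was measured at 50.8, 51.3 and 62.9 CPM in WT and at 47.4, 48.1 and 43.4 CPM in Mkx-/- tendons, a log2 difference of -0.25 ± 0.13 (SE, adjusted p = 0.300, edgeR). Every mutant library was below every WT library, in the direction opposite to Fgf18. On the other side, the nearest tested gene was Fbxw11, at a distance of 371 kb, with a log2 difference of -0.07 ± 0.14 (SE, adjusted p = 0.815, edgeR). Zfp346, 17.8 kb from Fgfr4, had a log2 difference of -0.35 ± 0.17 (SE, adjusted p = 0.256), and Nsd1, 41.0 kb away on the other side, had one of -0.24 ± 0.11 (SE, adjusted p = 0.242, edgeR). Nsd1 did not overlap between genotypes either, at 58.3 to 63.9 CPM in WT and 50.9 to 55.0 CPM in the mutant, in the direction of Fgfr4. Of all genes tested, 28.2% did not overlap.

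Scx, the gene of the tendon transcription factor scleraxis, was measured at 17.3, 40.2 and 53.4 CPM in WT and at 19.4, 13.3 and 17.5 CPM in the mutant, and was singled out after its values were seen. Its WT libraries stood in the same order as those of Fgfr4, but this order is not particular to the pair. Fgf18, at 4.49, 5.69 and 8.81 CPM in WT, had it too and differed in the opposite direction. Mkx-/- replicate 1 lay above WT replicate 1 for Scx, so the genotypes overlapped. The log2 difference of Scx was -1.14 ± 0.36 (SE, adjusted p = 0.106, edgeR).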
